A study of Homo sapiens with 12 samples.

Results

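The aldo-keto reductases are the subject of this account: 10 listed genes (AKR1A1, AKR1B1, AKR1B10, AKR1C1, AKR1C2, AKR1C3, AKR1C4, AKR1D1, AKR7A2 and AKR7A3) of the 26485 genes in the count table. They were chosen by name, with the fall of AKR1B10 in the labelled lines given as a reason, so the values against the Empty line are a description with no test. RNA sequencing was done on HepG2, an established hepatoma line of human origin. The 12 libraries came from 4 stable lines made by lipofection with a CRISPR vector and blasticidin selection, and grown in low glucose DMEM, which all lines share. Empty received an empty CRISPR construct and has the genotype WT in the labels. Z2, Z5 and Z9 received the constructs sgZHX3-2, sgZHX3-5 and sgZHX3-9, and the series title calls such cells ZHX3-depleted. Each line was seeded in 3 wells, a to c, so n = 3 wells a line. There was 1 line per construct and 1 control line, so any p-value refers to well-to-well spread, which may be technical, and says nothing of lines made anew.

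Aldo-keto reductases are NADPH-dependent cytosolic enzymes that reduce aldehydes and ketones to alcohols. Their substrates include sugars, retinal, products of lipid peroxidation, prostaglandins, steroids and quinones. Liver is a main site of the AKR1C enzymes and of AKR1D1, which act on steroid hormones and bile acid precursors, and AKR1B10 is known as a gene raised in many hepatocellular carcinomas. Several family genes are targets of the oxidative stress factor NRF2.

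The family's genes lie in clusters. On GRCh38.p14, AKR1C1 spans chr10:4963415-4983283, AKR1C2 chr10:4987775-5018000, AKR1C3 chr10:5048781-5107686 and AKR1C4 chr10:5196837-5218949. AKR1B1 spans chr7:134442350-134459239 and AKR1B10 chr7:134527567-134541412, followed by AKR1B15 at chr7:134549110-134579869. AKR1D1 lies on the same chromosome at chr7:138076459-138118305. AKR7A3 (chr1:19274229-19288770) and AKR7A2 (chr1:19302708-19312146) are neighbours, and AKR1A1 lies alone at chr1:45550826-45570049. The coding sequences show how close the copies are, which sets how far their reads can be told apart. The first 60 coding bases of the AKR1C genes (GENCODE release 29) are shown with capitals marking bases that differ from AKR1C1.
AKR1C1: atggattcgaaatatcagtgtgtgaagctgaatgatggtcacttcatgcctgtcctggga
AKR1C2: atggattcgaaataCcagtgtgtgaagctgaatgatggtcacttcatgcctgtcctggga
AKR1C3: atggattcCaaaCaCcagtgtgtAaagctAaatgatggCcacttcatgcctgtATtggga
AKR1C4: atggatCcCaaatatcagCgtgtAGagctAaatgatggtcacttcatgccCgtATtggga

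The same stretch of the AKR1B pair, with capitals marking bases of AKR1B10 that differ from AKR1B1, is less alike.
AKR1B1: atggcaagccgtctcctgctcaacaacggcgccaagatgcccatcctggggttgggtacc
AKR1B10: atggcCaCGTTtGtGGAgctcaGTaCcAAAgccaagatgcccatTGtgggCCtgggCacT

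Over the whole coding sequence AKR1C1 and AKR1C2 were identical at 98.04% of aligned bases, AKR1C1 and AKR1C3 at 91.43%, and AKR1C1 and AKR1C4 at 88.76%. AKR7A2 and AKR7A3 were identical at 85.05%, AKR1B10 and AKR1B15 at 86.14%, and AKR1B1 and AKR1B10 at 76.16%. A stretch of 100 bases occurred unchanged in another gene of the family at 32.9% of positions of the AKR1C2 transcript, 17.4% of the AKR1C1 transcript and 12.2% of the AKR7A3 transcript. That share was 4.98% for AKR1C3, 2.01% for AKR1B10, 0.549% for AKR1C4 and 0.396% for AKR7A2. It was 0 for AKR1A1, AKR1B1 and AKR1D1. How multiply mapping reads were treated is not given in the sources used here, so the split of counts between AKR1C1 and AKR1C2 is uncertain. The values of AKR7A3 share this limit, and those of AKR1C3 and AKR1B10 to a smaller extent. Strand use in counting is not given either, and RefSeq lists an overlapping locus for 7 of the 10 members, all but AKR1A1, AKR1B1 and AKR1B10. Only whole gene spans were compared, not exons or strands, so reads of such loci may or may not be separable from those of the member.

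AKR1C1 and AKR1C2 also have separate promoters of nearly identical sequence, which are shown because the balance of these genes differed between lines. The RefSeq promoter table (GRCh38.p14) matched 9 of the 10 members, all but AKR1B10. The 250 bases before the start are printed on the gene's strand for AKR1C1 (chr10:4963165-4963414, plus), AKR1C2 (chr10:5003858-5004107, minus) and the first of 2 AKR1C3 starts (chr10:5048531-5048780, plus). The AKR1C2 window lies inside the annotated span of that gene, which runs on upstream to chr10:5018000. Capitals mark the CCAAT motif, here on the opposite strand as ATTGG.
AKR1C1: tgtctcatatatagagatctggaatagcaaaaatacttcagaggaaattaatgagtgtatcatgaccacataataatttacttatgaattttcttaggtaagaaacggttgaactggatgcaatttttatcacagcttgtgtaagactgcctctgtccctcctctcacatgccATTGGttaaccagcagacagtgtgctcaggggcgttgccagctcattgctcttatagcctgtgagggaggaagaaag
AKR1C2: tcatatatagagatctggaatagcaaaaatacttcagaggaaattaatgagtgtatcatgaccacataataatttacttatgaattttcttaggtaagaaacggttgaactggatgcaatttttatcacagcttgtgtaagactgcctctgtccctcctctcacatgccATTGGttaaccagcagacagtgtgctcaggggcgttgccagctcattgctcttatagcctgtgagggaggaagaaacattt
AKR1C3: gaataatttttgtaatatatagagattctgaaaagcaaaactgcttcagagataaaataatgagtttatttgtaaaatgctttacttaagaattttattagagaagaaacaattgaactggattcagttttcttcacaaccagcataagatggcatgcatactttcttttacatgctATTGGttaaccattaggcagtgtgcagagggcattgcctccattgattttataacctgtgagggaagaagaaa

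AKR1C1 and AKR1C2 were identical at 245 of 246 aligned bases, and AKR1C1 and this AKR1C3 promoter at 185 of 250. The motif CCAAT, searched on both strands, occurred once in AKR1C1, AKR1C2 and both AKR1C3 starts, and in 1 of 2 AKR1B1 starts. It occurred in 32% of the 35116 promoters in the table. TGACNNNGC, the core of the NRF2 site, occurred 3 times at AKR7A2 and in no other member's window. It occurred in 10.9% of all promoters. TATAAA, the letters of the TATA box, occurred in the AKR1C3 promoter printed here only on the opposite strand, as TTTATA. In the AKR1C4 promoter it occurred on the gene's strand. Each motif was searched on both strands, and TATAAA occurred in 10.7% of all promoters. Each match is a description of letters only.

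Library totals were 50864744 (Empty a) to 65428204 counts (Empty c). The filter on low counts kept 15289 genes, all 10 members included. ZHX3, the gene named in the constructs, stood at 33.0 ± 0.42 CPM (counts per 1000000 on scaled library sizes; SD, n = 3) in Empty. The lines Z2, Z5 and Z9 had 34.5 ± 0.62, 32.9 ± 0.51 and 34.3 ± 0.71 CPM. The mean of the lines differed from Empty by 0.04 ± 0.04 (SE) on the log2 scale, with an adjusted p of 0.544 in edgeR's quasi-likelihood test. ZHX3 mRNA was thus not lower in the lines labelled ZHX3-depleted, and gene counts do not show whether an edit is present, so the lines are named by their labels throughout. Of 10 hepatocyte markers none was at 0, and their summed level was 63397 to 64870 CPM in Empty. It ran from 58396 to 63210 CPM in Z2, from 60614 to 62047 in Z5 and from 56539 to 57813 in Z9. Of the leukocyte list, MARCO was at 0 in every library, PTPRC reached 0.0384 CPM, and LYZ held most of the summed 1591 to 2162 CPM. CD68 of that list stood at 46.7 to 61.1 CPM as line means. Of the stromal and endothelial list, DCN was at 0, and the sum was 30.4 to 41.0 CPM. Most of it was PDGFRB, at 24.4 to 26.7 CPM as line means, and PECAM1 had 4.64 to 5.80 CPM. The cholangiocyte sum was 653 to 921 CPM. In bulk RNA, fewer cells of a type and less RNA per cell cannot be told apart. The part of these markers in the results was not tested.

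AKR1C1 took the largest share of the family's counts. Per kilobase of coding sequence, the scale used here to compare genes, AKR1C1 stood at 733 ± 128 CPM in Empty, AKR1C3 at 177 ± 11.2 and AKR1C2 at 83.1 ± 15.4. AKR1A1 followed at 78.2 ± 2.68, and its wells lay within the range of AKR1C2. AKR1B1 stood at 60.2 ± 9.75 and AKR1B10 at 52.9 ± 4.51, and the wells of these 2 genes overlapped. AKR7A2 stood at 43.4 ± 1.00 and AKR1D1 at 27.4 ± 1.83. AKR7A3, at 0.536 ± 0.099, and AKR1C4, at 0.225 ± 0.09, were near the limit of detection. Where AKR1B10 was the sixth gene in Empty, above AKR7A2, it stood below AKR7A2 in each labelled line with no overlap of wells. There it reached 21.1 ± 3.54 (Z2), 23.6 ± 3.90 (Z5) and 26.8 ± 2.05 CPM (Z9) per coding kilobase, and its wells overlapped those of AKR1D1 in Z2 and Z5. AKR1C1 alone took 56.6% to 60.6% of the family's summed CPM in Empty wells and 50.3% to 59.3% in wells of the labelled lines. The order depends on the length used. Per kilobase of the annotated transcript, which is long for AKR1C1, the mean of AKR1C1 was above that of AKR1C3 in Empty, 106 against 94.9 CPM, but below it in the labelled lines. There AKR1C1 had 74.6, 73.9 and 103 CPM in Z2, Z5 and Z9, and AKR1C3 had 96.6, 97.4 and 109.7 CPM. On that scale AKR1B10 was below AKR7A2 in Empty too, 31.5 against 34.4 CPM.

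**Figure D1:**
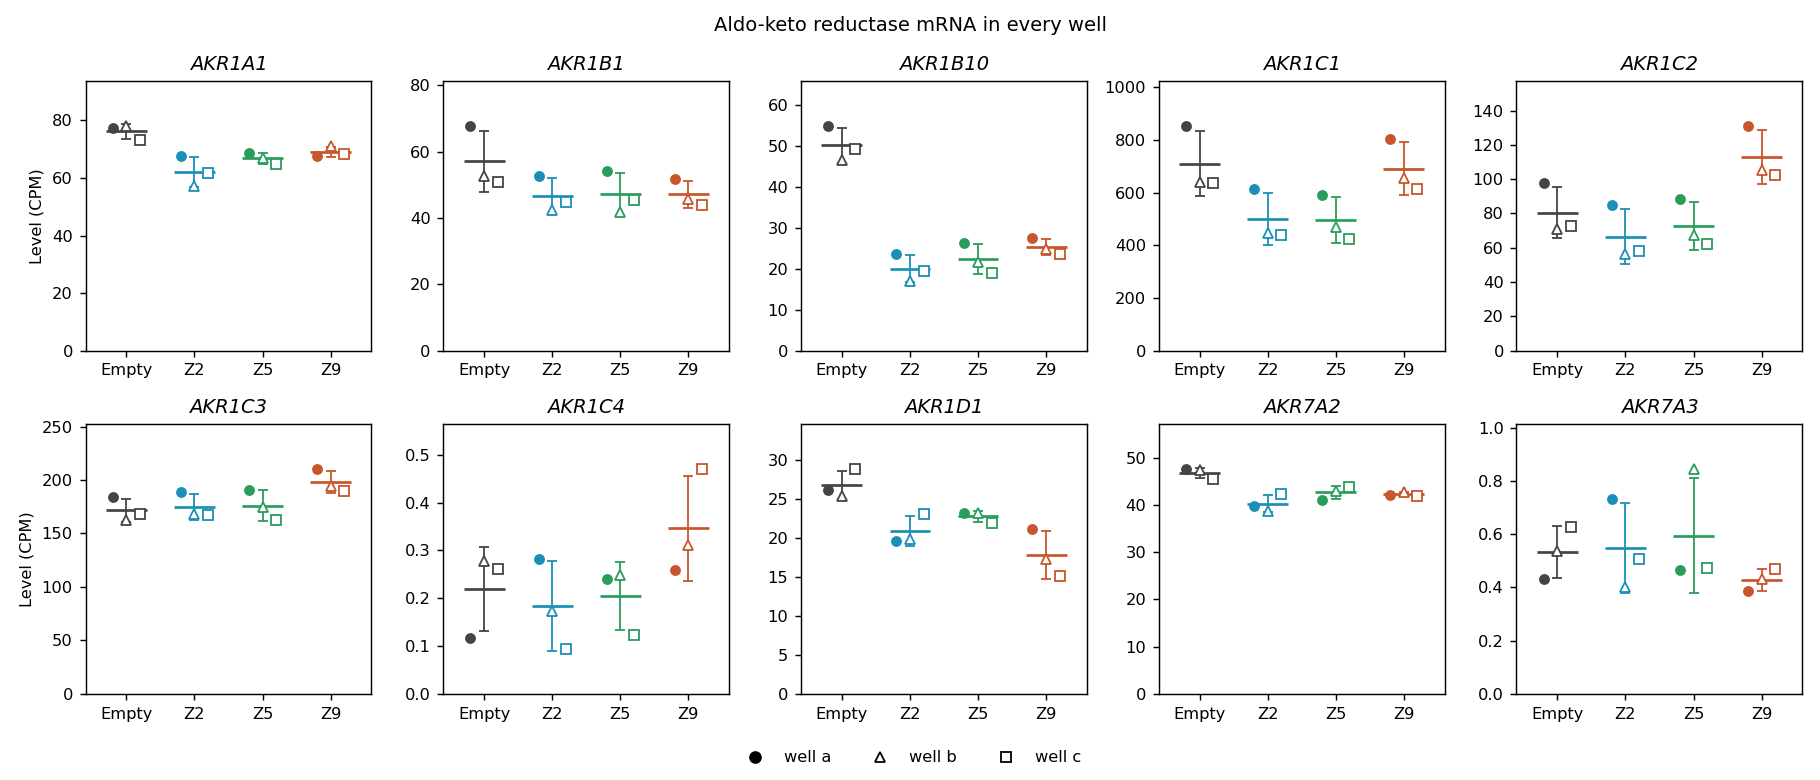
Level of each family gene in every well, in CPM on linear axes that start at 0, for the lines Empty, Z2, Z5 and Z9. Symbols mark wells a, b and c, horizontal bars the mean and error bars the SD of 3 wells; AKR1B10 lies between 46.4 and 54.8 CPM in Empty and between 17.0 and 27.5 CPM in the labelled lines.

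Among the genes that reduce sugars, retinal and other aldehydes, AKR1B10 showed the widest gap to Empty. This enzyme reduces retinal and lipid-derived aldehydes. Its level was 54.8, 46.4 and 49.2 CPM in Empty wells a, b and c. It was 23.7, 17.0 and 19.5 CPM in Z2, 26.4, 21.7 and 19.1 CPM in Z5, and 27.5, 24.9 and 23.7 CPM in Z9. All 9 wells of the labelled lines lay below all 3 Empty wells, and the counts behind them, 886 to 3210 a library, were ample. The log2 fold change against Empty was -1.16 ± 0.10 (SE) for the mean of the lines, a level 0.449 times that of Empty. By line it was -1.32 ± 0.13 in Z2, -1.16 ± 0.12 in Z5 and -0.98 ± 0.12 in Z9. Adding the 0 to 7 counts of its near copy AKR1B15 left the mean at -1.16.

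AKR1B1, aldose reductase, which turns glucose into sorbitol, lies beside AKR1B10 and varied less between lines. Its wells held 67.7, 52.7 and 50.8 CPM in Empty, 52.6, 42.4 and 44.7 CPM in Z2, 54.2, 41.8 and 45.5 CPM in Z5, and 51.7, 45.8 and 44.0 CPM in Z9. The highest well of each labelled line overlapped the lower Empty wells. The log2 fold change of the mean of the lines was -0.28 ± 0.10, and it was -0.14 without Empty a, the highest well. AKR1A1, the general aldehyde reductase that also acts in glucuronate metabolism, held 77.4, 78.1 and 73.2 CPM in Empty. Its labelled wells ran from 57.1 CPM in Z2 b to 71.1 CPM in Z9 b, all below Empty. Its log2 fold change was -0.29 ± 0.06 in Z2, -0.19 ± 0.06 in Z5 and -0.14 ± 0.06 in Z9, which is the order of lines also seen in the AKR1B10 values.

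The AKR1C genes, which reduce and oxidise steroid hormones, did not move as a block. AKR1C1, which inactivates progesterone, held 853, 640 and 637 CPM in Empty wells a, b and c. The wells held 613, 446 and 440 CPM in Z2, 592, 470 and 425 CPM in Z5, and 803, 656 and 615 CPM in Z9. Every well of Z2 and Z5 lay below every Empty well, while the Z9 wells overlapped Empty. The log2 fold changes against Empty were -0.51 ± 0.18 in Z2, -0.52 ± 0.18 in Z5 and -0.04 ± 0.18 in Z9.

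AKR1C2, which inactivates dihydrotestosterone, had another order. Its wells held 97.7, 71.1 and 72.6 CPM in Empty, 84.9, 56.2 and 58.4 CPM in Z2, 88.7, 67.2 and 62.1 CPM in Z5, and 131, 106 and 102 CPM in Z9. Z9 was the highest line with no overlap, and the wells of Empty, Z2 and Z5 overlapped. The log2 fold change against Empty was 0.49 ± 0.21 in Z9, -0.27 ± 0.21 in Z2 and -0.15 ± 0.21 in Z5.

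AKR1C3, which makes testosterone from androstenedione and also reduces prostaglandins, stayed close to Empty in Z2 and Z5. It held 184, 163 and 168 CPM in Empty, 188, 168 and 167 CPM in Z2, 191, 175 and 162 CPM in Z5, and 210, 195 and 190 CPM in Z9. All Z9 wells were above all Empty wells, with a log2 fold change of 0.21 ± 0.07 against 0.03 ± 0.07 in Z2 and 0.04 ± 0.07 in Z5. AKR1C4, the liver enzyme that acts on bile acid precursors, had 5 to 26 counts a library (0.0941 to 0.47 CPM) and overlapped between every labelled line and Empty. At these counts a difference from Empty was not detectable, with a 95% interval of the mean log2 difference from -0.70 to 0.85.

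AKR1D1 reduces the steroid ring on the way to bile acids and lies apart from the AKR1C genes in sequence (63.69% identity with AKR1C1). It held 26.2, 25.4 and 28.8 CPM in Empty, 19.7, 19.8 and 23.1 CPM in Z2, 23.2, 23.2 and 22.0 CPM in Z5, and 21.1, 17.3 and 15.1 CPM in Z9. All labelled wells lay below Empty, and Z9 held the lowest. The log2 fold change against Empty was -0.36 ± 0.10 in Z2, -0.23 ± 0.10 in Z5 and -0.59 ± 0.10 in Z9. Among the labelled lines Z9 thus had the highest mean levels of the AKR1C genes and the lowest of AKR1D1, and it was also the line with the lowest summed hepatocyte markers. The markers did not move together: ALB, the largest, had 17529 CPM in Empty and 11480 to 11974 CPM as line means, while FGB was highest in Z9, 369 against 263 CPM in Empty. In Z9 against Empty 1 of the 10 was called higher and 3 lower, beside 9.66% and 9.58% of all genes. The median log2 fold change of the 10 was -0.08. The part of the markers in the AKR1D1 values was not tested.

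The AKR7A enzymes reduce aflatoxin dialdehyde, and AKR7A2 also reduces succinic semialdehyde. AKR7A2 held 47.5, 47.3 and 45.6 CPM in Empty and 38.7 to 43.9 CPM in the labelled lines, with no overlap. Its log2 fold change was small, -0.17 ± 0.04 for the mean of the lines, and its wells agreed closely within each line. AKR7A3 had 21 to 44 counts a library (0.387 to 0.844 CPM) and overlapped between all lines. Its mean log2 difference of -0.05 had a 95% interval from -0.57 to 0.47.

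For the mean of the labelled lines against Empty, 4 of the 10 members had an adjusted p under 0.05, all lower, beside 25.6% of all genes tested (13.0% higher, 12.6% lower). In Z2 the count was 4, all lower, beside 23.9% of all genes (12.4% higher, 11.5% lower). In Z5 it was 2, both lower, beside 15.0% of all genes (8.27% higher, 6.68% lower). In Z9 it was 3, with 2 lower and AKR1C3 higher, beside 19.2% (9.66% higher, 9.58% lower). The choice of the family used this contrast, so nothing is read from these counts. The counts moved with single libraries. The share of all genes called for the mean of the lines was 13.6% without Empty a, and AKR7A2 then missed the threshold. The AKR1A1 call in Z5 was lost without Empty a, Empty b, Z5 b or Z5 c, the AKR1D1 call in Z2 without Empty c or Z2 b, and the AKR1C3 call in Z9 without Empty b, Empty c, Z5 b, Z9 a or Z9 b. The median log2 fold change of the 10 members was -0.19 for the mean of the lines, beside 0.00290 for all genes tested.

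**Figure D2:**
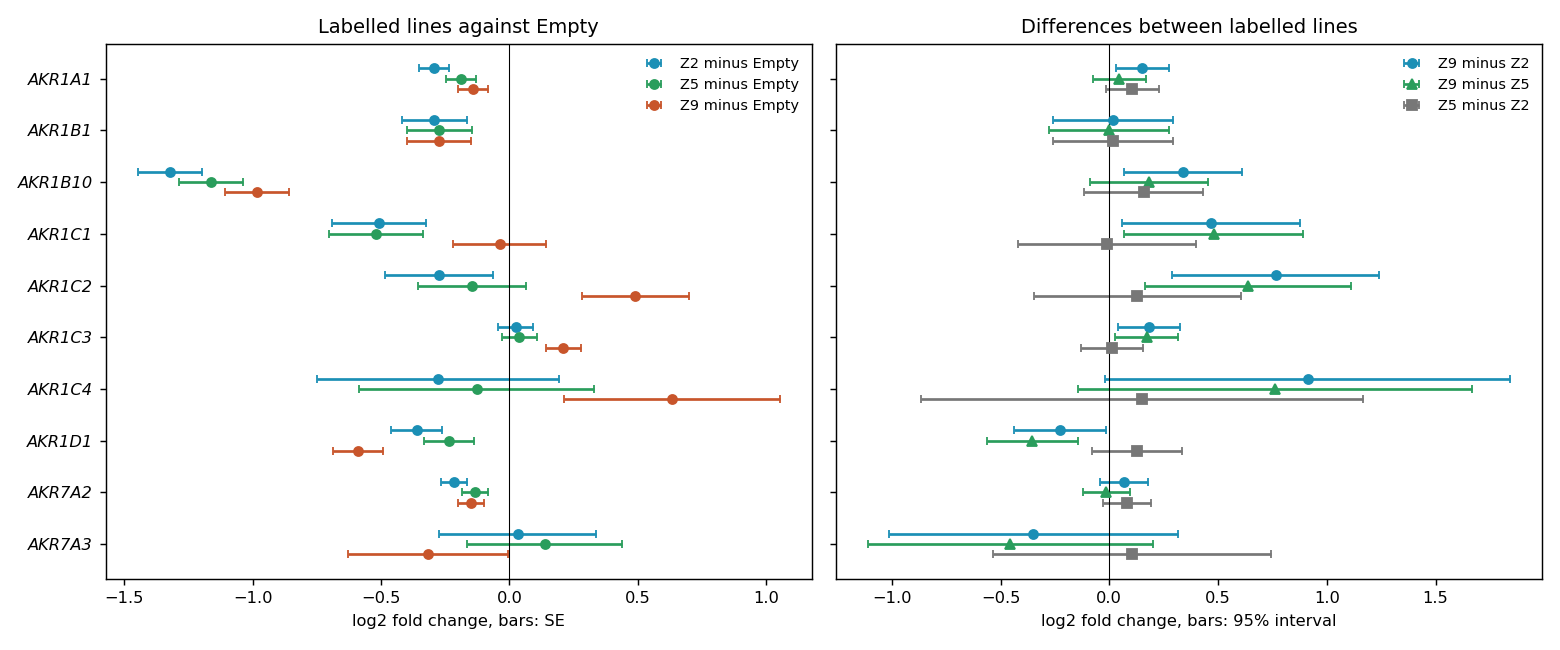
Log2 fold changes of the 10 family genes from the edgeR fit, on the left each labelled line minus Empty with SE bars, on the right differences between the labelled lines with 95% intervals. AKR1B10 lies between -1.32 and -0.98 on the left; on the right the interval of AKR1C2 lies above 0 for Z9 minus Z2 and for Z9 minus Z5.

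Differences between the labelled lines were not used to choose the family and were tested. The Empty wells enter these only through the shared estimate of spread and the scaling. AKR1C2 and AKR1C1 were higher in Z9 than in either other line in every well, but no member passed the threshold. AKR1C2 was 1.70-fold higher in Z9 than in Z2 (95% interval 1.22 to 2.36), with a log2 difference of 0.77 ± 0.21 and an adjusted p of 0.0691. Against Z5 it was 1.55-fold higher (1.12 to 2.16), with an adjusted p of 0.205. AKR1C1 was 1.38-fold higher in Z9 than in Z2 (1.04 to 1.84, adjusted p = 0.157) and 1.39-fold higher than in Z5 (1.05 to 1.85, adjusted p = 0.265). The summed counts of AKR1C1 and AKR1C2 differed by 0.51 ± 0.19 between Z9 and Z2 (log2, adjusted p = 0.136). This sum is free of the split between these genes only if each read they share was counted once, which is not known. AKR1C3 was 1.14-fold higher in Z9 than in Z2 (1.03 to 1.25, adjusted p = 0.113).

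AKR1D1 had lower values in Z9. It was 0.782 times as high in Z9 as in Z5 (0.676 to 0.904, adjusted p = 0.0921) and 0.854 times as high as in Z2 (0.738 to 0.988, adjusted p = 0.175). AKR1B10 was 1.27-fold higher in Z9 than in Z2 (1.05 to 1.53, adjusted p = 0.125), with no overlap of wells. The Z9 and Z5 wells of AKR1B10 overlapped, and their ratio was 1.13 (0.940 to 1.37, adjusted p = 0.549). The Z5 and Z2 wells of AKR1B10 overlapped too, and the ratio of Z5 to Z2 was 1.12 (0.923 to 1.35, adjusted p = 0.665). The ratio of AKR1C1 between Z5 and Z2 was 0.992 (0.747 to 1.32). The AKR1B10 interval holds the 1.27 seen between Z9 and Z2.

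By edgeR's adjusted p, 0 of 10 members differed between Z9 and Z2, beside 5.17% of all genes (1.96% higher, 3.21% lower in Z9). Between Z9 and Z5 the count was 0, beside 1.52% (0.432% higher, 1.09% lower in Z9), and between Z5 and Z2 it was 0, beside 0.00654%. At an unadjusted p under 0.05 the counts were 6, 4 and 0, beside 23.9%, 14.5% and 10.3% of all genes. The DESeq2 Wald test called 2 (AKR1B10 and AKR1C2), 1 (AKR1D1) and 0, beside 9.87%, 3.24% and 0.0589% of all genes. Well a was the highest well of each line for several of these genes, as described for the wells below, and the calls moved with it. Without well a of every line, an alternative chosen after the data were seen, AKR1B10, AKR1C1, AKR1C2 and AKR1D1 passed the threshold between Z9 and Z2, beside 6.76% of all genes. AKR1C1, AKR1C2 and AKR1D1 then passed it between Z9 and Z5, beside 1.22%. In that fit of wells b and c only, AKR1C2 differed by 0.86 between Z9 and Z2 on the log2 scale (adjusted p = 2.12e-05). AKR1C1 differed by 0.52 (adjusted p = 0.00176) and AKR1D1 by -0.41 (adjusted p = 0.0328). For AKR1C1 and AKR1C2 well a lay furthest from the line mean in every line. The spread behind their p-values was thus made smaller by the choice of wells. Leaving out Z2 a alone brought 5 members past the threshold between Z9 and Z2 (AKR1A1, AKR1B10, AKR1C1, AKR1C2 and AKR1C3), beside 15.5% of all genes. Leaving out Z9 a alone brought AKR1D1 past it between Z9 and Z5, beside 0.369% of all genes.

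The balance of AKR1C1 and AKR1C2 counts separated all 4 lines. Each AKR1C2 count was matched by 8.73, 9.00 and 8.78 AKR1C1 counts in Empty wells a, b and c. The ratio was 7.22, 7.94 and 7.55 in Z2, 6.67, 7.00 and 6.84 in Z5, and 6.13, 6.21 and 6.01 in Z9. No line overlapped another, and within a line the highest and lowest wells differed by far less than the levels of either gene did. The mean ratio was 8.84 ± 0.14 for Empty wells, and 7.57 ± 0.36, 6.84 ± 0.16 and 6.12 ± 0.10 for wells of Z2, Z5 and Z9. Over the 9 wells of Z2, Z5 and Z9 an exact permutation test of the log2 ratio between lines gave p = 0.00357, the smallest that 1680 arrangements allow, and 0.0107 after Benjamini-Hochberg adjustment over 3 ratios. The ratios were chosen after the counts had been seen. Since the genes share sequence, the ratio is one of assigned counts.

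The ratio of AKR1C3 to AKR1C2 counts was 2.69 ± 0.41 in Z2, 2.46 ± 0.27 in Z5 and 1.77 ± 0.14 in Z9, beside 2.16 ± 0.24 in Empty. Z9 lay below Z2 and Z5 without overlap, and the exact permutation test over the 3 labelled lines gave p = 0.0179 (adjusted p = 0.0268). This call was lost without any of Z2 b, Z2 c, Z5 b, Z9 a or Z9 b, with p-values up to 0.075 in the exact test. The ratio of AKR1B1 to AKR1B10 counts was 2.34 ± 0.14 in Z2, 2.12 ± 0.24 in Z5 and 1.86 ± 0.02 in Z9, beside 1.13 ± 0.10 in Empty. It did not pass the threshold between the labelled lines (exact permutation p = 0.05, adjusted p = 0.05). Without Z5 b it gave an exact p of 0.0214 and without Z5 c an exact p of 0.00357. Without any other single well of these lines the exact p was higher than with all wells, 0.0536 to 0.0929.

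**Figure D3:**
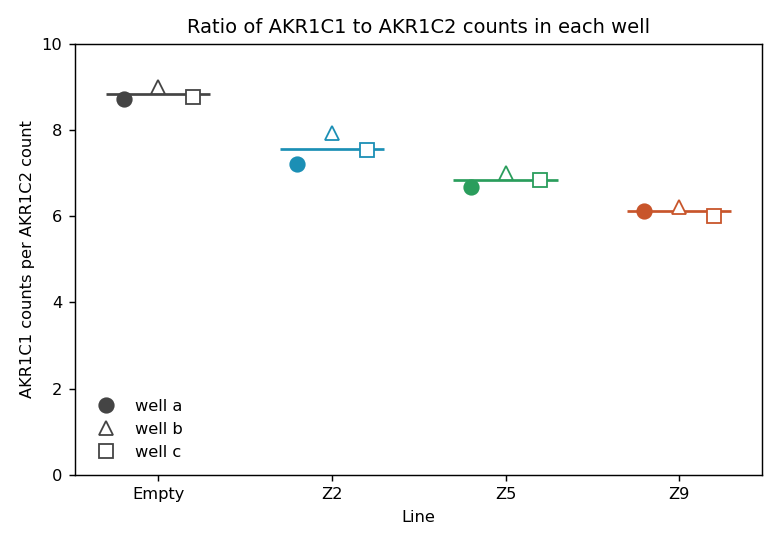
AKR1C1 counts per AKR1C2 count in each well of the 4 lines, on a linear axis that starts at 0, with symbols for wells a, b and c and a bar at each line's mean. The lines do not overlap, from 8.73 to 9.00 in Empty down to 6.01 to 6.21 in Z9.

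Within lines, 5 of the 10 members (AKR1B1, AKR1B10, AKR1C1, AKR1C2 and AKR1C3) were highest in well a of all 4 lines. The same held for 3.75% of all genes tested (574 of 15289), while 0.968% were highest in well b of all lines and 1.18% in well c. On the log2 scale well a exceeded the mean of the other wells of its line by 0.45 on average for AKR1C2 (0.33 to 0.57 over the lines). The average was 0.41 for AKR1C1 (0.34 to 0.47), 0.29 for AKR1B1, 0.28 for AKR1B10 and 0.16 for AKR1C3. AKR1A1, AKR1D1 and AKR7A2 showed no such order, with averages of 0.06, 0.06 and -0.02. For AKR1C2 the average gap of 0.45 was larger than the differences of -0.27 and -0.15 between Z2 or Z5 and Empty, and for AKR1C1 it was smaller than those of -0.51 and -0.52.

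The spread within lines was unequal among the members. The within-line SD of log2 CPM was 0.27 for AKR1C2 and 0.24 for AKR1C1, larger than in 99.5% and 98.1% of genes of like level. It was 0.18 for AKR1B1 and 0.19 for AKR1B10, larger than in 97.1% and 96.7%. For AKR7A2 it was 0.04, larger than in 7.96%. Outside the family, 2 of 28 NRF2 target genes were highest in well a of every line, NQO1, a quinone reductase, and GPX2, a glutathione peroxidase, by 0.16 and 0.25 on the log2 scale. Among 31 other carbonyl and aldehyde enzymes 1 was, ALDH2, the mitochondrial acetaldehyde dehydrogenase, by 0.11. These genes were picked out after their values were seen. The labels do not say what the well letters share.

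**Figure D4:**
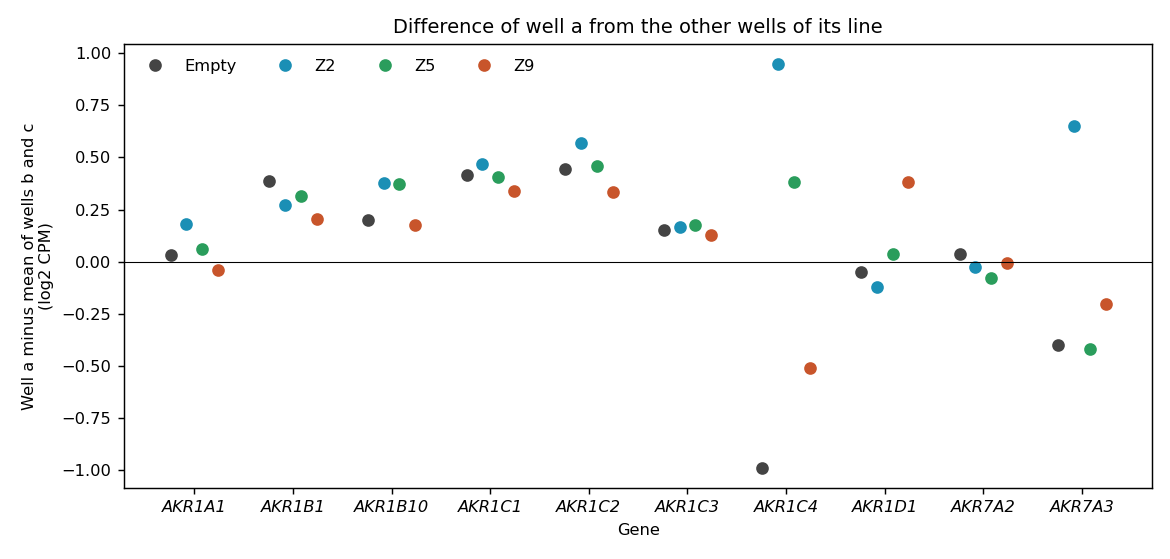
Difference between well a and the mean of wells b and c of the same line, in log2 CPM, for each family gene, with a point for each of the lines Empty, Z2, Z5 and Z9. For AKR1B1, AKR1B10, AKR1C1, AKR1C2 and AKR1C3 all 4 points lie above 0; AKR1C4 and AKR7A3 scatter widely at 5 to 44 counts a library.

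Of the other genes of the superfamily most were at or near 0. AKR1E2 had 0 counts in all 12 libraries, AKR1B15 had 0 to 7 and AKR7L 11 to 31. The pseudogenes AKR1C8P and AKR1C6P had at most 5 and 3 counts, and AKR7A2P1 had 7 to 26. KCNAB2, a beta subunit of potassium channels with an aldo-keto reductase fold, was the most abundant at 18.9 ± 1.36 CPM in Empty, with 16.3 ± 1.27, 17.1 ± 0.37 and 19.1 ± 0.99 CPM in Z2, Z5 and Z9. Its relatives KCNAB1 and KCNAB3 stayed at 0.578 to 1.08 and 0.52 to 1.26 CPM. By edgeR's adjusted p, 0 of the 5 genes tested differed between the mean of the labelled lines and Empty, and 1 did at an unadjusted p under 0.05. DESeq2 also called 0. By line, edgeR called 1 of the 5 in Z2, KCNAB2 (log2 fold change -0.21, adjusted p = 0.0449), and 0 in Z5 or Z9. All genes gave 23.9%, 15.0% and 19.2%.

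Genes of the pathways around the family were tested list by list. Of 28 NRF2 targets outside the family, 13 (46.4%) fell in the mean of the labelled lines and 0 rose, beside 12.6% and 13.0% of all genes. At an unadjusted p under 0.05, 2 were higher, and DESeq2 called 1 higher. The median log2 fold change was -0.15, beside 0.00290 for all genes. CES1, a carboxylesterase, had 114 ± 7.91 CPM in Empty and fell to 53.1 ± 7.60, 63.8 ± 5.35 and 66.6 ± 6.24 in Z2, Z5 and Z9 (log2 fold change of the mean -0.91 ± 0.08, edgeR adjusted p = 1.17e-06). ABCC3, an exporter of conjugates, fell by 0.46 on the log2 scale (adjusted p = 1.1e-07), and PRDX1, a peroxiredoxin, fell by 0.37 (adjusted p = 5.07e-06). The count of lower genes ran from 10 without Empty a or Empty b to 16 without Z2 b, and was 10 without well a of every line. All genes called in either direction were 13.6% without Empty a, 17.3% without Empty b and 30.9% without Z2 b. They were 18% without well a, against 25.6% with all libraries. NFE2L2, which encodes NRF2, differed by 0.06 ± 0.08 (adjusted p = 0.603), and KEAP1, its inhibitor, by -0.06 ± 0.05 (adjusted p = 0.43).

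Of 31 other carbonyl and aldehyde enzymes, 9 (29%) fell and 2 (6.45%) rose, against 12.6% and 13.0% of all genes, with a median of -0.08. PTGR1, which reduces lipid enals, stood at 10.2 ± 1.40 CPM in Empty and 4.29 ± 0.39, 5.01 ± 0.51 and 4.96 ± 0.48 in Z2, Z5 and Z9 (log2 fold change -1.11 ± 0.09, edgeR adjusted p = 1.55e-07). ALDH1A1, which oxidises retinal, fell by 0.60 on the log2 scale (adjusted p = 4.93e-07), and ALDH2 fell by 0.36 (adjusted p = 2.89e-05). PTGR2, a prostaglandin reductase, rose by 0.62 (adjusted p = 7.53e-05), and ALDH6A1, of valine breakdown, rose by 0.19 (adjusted p = 0.00817). The count of lower genes was 4 without Empty a, 5 without Empty b and 5 without well a of every line. The share of all genes called in either direction was then 13.6%, 17.3% and 18%, against 25.6% with all libraries. The count of higher genes was 4 without Empty c or Z2 b.

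Of 21 retinoid genes, 6 (28.6%) fell and 3 (14.3%) rose, beside 12.6% and 13.0% of all genes, with a median of -0.06. ALDH8A1, an aldehyde dehydrogenase, was at 2.80 ± 0.45 CPM in Empty and at 0.48 to 0.625 CPM on average in the labelled lines (log2 fold change -2.29 ± 0.17, edgeR adjusted p = 5.25e-08). RBP4, the plasma carrier of retinol, fell by 0.21 (adjusted p = 0.00185). RDH12, a retinal reductase, rose by 0.63 (adjusted p = 0.00301) and CRABP2, a retinoic acid carrier, by 0.88 (adjusted p = 0.0109, and 0.0933 without Empty a).

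Of 30 steroid and bile acid enzymes, 8 (26.7%) fell and 5 (16.7%) rose, where all genes gave 12.6% and 13.0%, with a median of 0.06. BAAT, which conjugates bile acids to amino acids, stood at 9.51 ± 1.37 CPM in Empty and 28.7 ± 2.88, 18.9 ± 1.96 and 23.7 ± 3.83 in Z2, Z5 and Z9 (log2 fold change 1.30 ± 0.11, edgeR adjusted p = 8.41e-07). HSD17B11 rose by 0.33 (adjusted p = 6.81e-05) and SRD5A1, a steroid reductase, by 0.30 (adjusted p = 0.00257). HSD17B2, which inactivates estradiol and testosterone, fell from 44.8 ± 2.72 CPM in Empty to 25.7 ± 2.14, 28.8 ± 1.97 and 29.7 ± 0.55 (log2 fold change -0.68 ± 0.05, adjusted p = 1.04e-07). HSD17B7, which also acts in cholesterol synthesis, fell by 0.40 (adjusted p = 2.58e-05), and HSD3B7, of bile acid synthesis, fell by 0.37 (adjusted p = 8.99e-05). The count of lower genes was 4 without Empty a or Empty c, and that of higher genes was 3 without well a of every line. The share of all genes called in either direction was 13.6%, 20.3% and 18% in these fits, against 25.6% with all libraries.

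Of 12 genes listed for the polyol pathway and fructose use, with glucose transporters and hexokinases among them, 3 rose and 3 fell (25.0% each). All genes gave 13.0% and 12.6%, and the median of the list was 0.04. HK1, a hexokinase, rose from 6.75 ± 0.53 CPM to 16.1 ± 0.92, 13.2 ± 1.10 and 14.1 ± 0.31 (log2 fold change 1.10 ± 0.07, edgeR adjusted p = 1.03e-08), and SLC2A1, a glucose transporter, rose by 0.36 (adjusted p = 0.000159). HK2 rose by 0.15 (adjusted p = 0.0418), a call lost without Empty a, Empty c, Z2 c, Z5 b, Z5 c, Z9 b or Z9 c. SLC2A2, the main glucose transporter of hepatocytes, fell by 0.31 (adjusted p = 0.000242), and TKFC, a fructose pathway kinase, fell by 0.22 (adjusted p = 0.00196). SORD, which turns the sorbitol made by AKR1B1 into fructose, fell by 0.21 (adjusted p = 0.0065, and 0.0762 without Empty a).

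Of 23 factors named as regulators of aldo-keto reductase genes, 4 (17.4%) rose and 2 (8.7%) fell, shares near the 13.0% and 12.6% of all genes, with a median of 0.03. AHR, the dioxin receptor, rose from 39.5 ± 4.75 CPM to 77.3 ± 9.19, 72.3 ± 3.02 and 74.6 ± 7.19 (log2 fold change 0.92 ± 0.08, edgeR adjusted p = 1.32e-06), and NR3C1, the glucocorticoid receptor, rose by 0.25 (adjusted p = 0.00202). MAFG, a small partner of NRF2 in DNA binding, fell by 0.14 (adjusted p = 0.046), a call lost without any of the Empty wells, Z2 c, Z5 b, Z5 c, Z9 b or Z9 c. Without any 1 of these 8 libraries 2 genes of the list were higher, and 0 (without Empty a or Empty b) or 1 was lower.

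**Figure D5:**
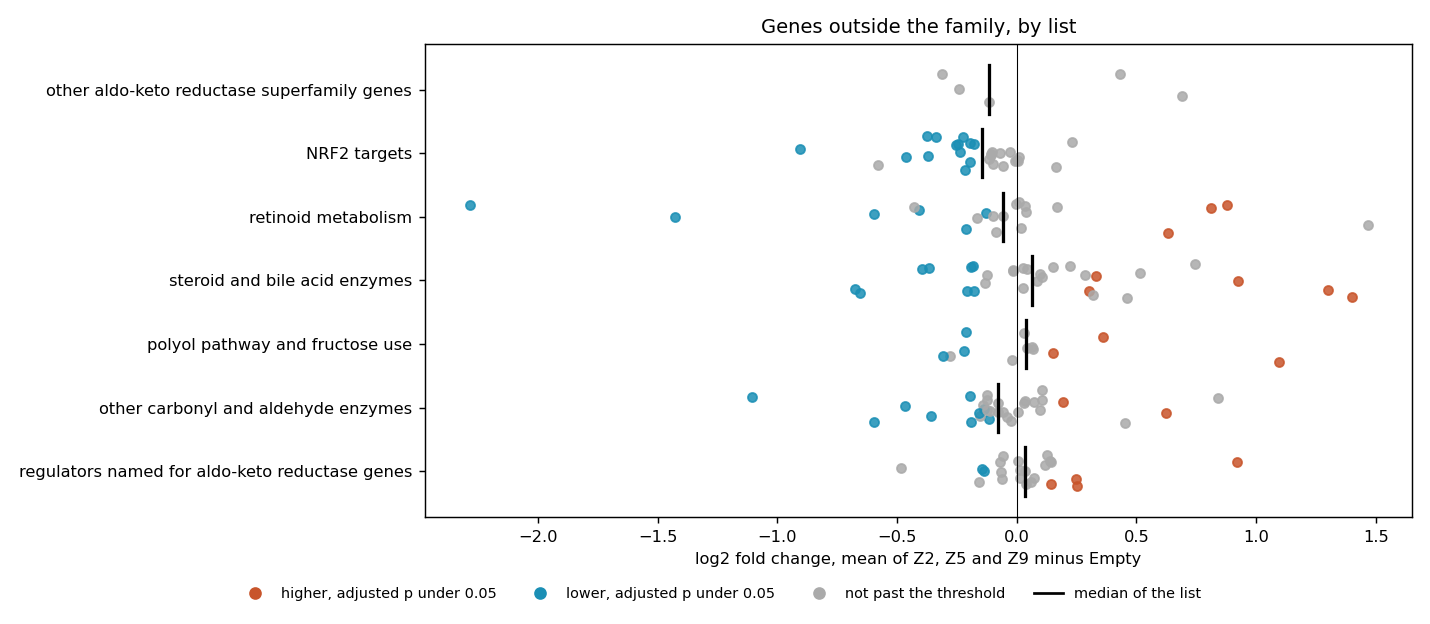
Log2 fold change of the mean of Z2, Z5 and Z9 minus Empty for each gene of the lists outside the family that passed the filter on low counts; points are genes, coloured by whether the edgeR adjusted p was under 0.05, and black bars are list medians. Of the NRF2 targets 13 of 28 are called lower and none higher, and the other lists have called genes on both sides except the superfamily list, which has none.

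The 5 genes with the profile most like AKR1B10 over the 12 libraries, among 11662 candidates, were HPX, PTGR1, ACSM2A, APOA4 and ATP2B2. Likeness was the root mean square difference of centred log2 CPM, 0.156 for HPX, 0.187 for PTGR1, 0.203 for ACSM2A, 0.225 for APOA4 and 0.226 for ATP2B2. HPX encodes the plasma heme carrier hemopexin and APOA4 an apolipoprotein, both secreted proteins. ACSM2A is a mitochondrial acyl-CoA synthetase and ATP2B2 a calcium pump. HPX stood at 19.0 ± 2.08 CPM in Empty and 8.65 ± 2.00, 10.7 ± 1.19 and 12.1 ± 1.61 in Z2, Z5 and Z9, the same order of lines as AKR1B10. Their log2 fold changes of the mean of the lines ran from -0.74 for ACSM2A to -1.11 for PTGR1. They were picked for likeness, so these values carry no test.

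AKR1C3 was the member with the largest positive mean change, 0.09 ± 0.06. The genes nearest to it were DCUN1D2, RAP2B, RABGEF1, ANKRD54 and GPR108, at distances of 0.0526 to 0.0579 on the same scale. Their mean changes were small, from 0.03 for RAP2B to 0.10 for GPR108.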

How the data were processed

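The authors deposited whole-number read counts per gene symbol for 12 libraries. The submitters' processing notes name STAR, featureCounts and hg38. Versions, annotation, strand setting and the treatment of multiply mapping reads were not given in the sources used. Samples were grouped by title into Empty, Z2, Z5 and Z9.

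Of 26485 genes, 21343 had counts and 15289 passed filterByExpr of edgeR 4.0.16 (R 4.3.3). Libraries of 50864744 to 65428204 counts were scaled by TMM, and all 12 entered 1 robust quasi-likelihood fit of 4 group means (8 residual degrees of freedom). Benjamini-Hochberg adjustment ran over all genes of a comparison, with 0.05 as threshold. SE is the log2 fold change over the root of F. The test was also tried on simulated counts. Count ratios were tested by enumeration of all arrangements of wells.

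Coding sequences and 100-base sharing came from GENCODE release 29 transcripts. Promoters and positions came from RefSeq (GRCh38.p14), which may differ from the authors' annotation. Named genes were all members and superfamily genes, NFE2L2 and KEAP1, up to 3 higher and 3 lower genes of the smallest p in each list for the mean of the lines, and the 5 profile neighbours (mean of at least 1 log2 CPM, prior count 2) of AKR1B10 and of the member with the largest rise. Of the genes this rule gave, 3 are not reported here. Members and lists were chosen with earlier results of these data known. Alternatives were DESeq2 1.42.0 size factors and Wald test, other count filters, the replicate letter as a block, only the groups compared, copies summed, and each library left out in turn. Leaving out well a of every line, refitting the ratios without each well, and the lists and named genes under every alternative were chosen after seeing the data.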

Additional observations from a re-analysis of the deposited data

Results flagged for a closer look

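The balance of counts assigned to AKR1C genes differed between the 3 labelled lines, with 1 line per construct. The ratio of AKR1C1 to AKR1C2 counts had means of 7.57 in Z2, 6.84 in Z5 and 6.12 in Z9, with no overlap of wells (exact permutation p = 0.00357 over 9 wells). The ratio of AKR1C3 to AKR1C2 counts also differed between Z2, Z5 and Z9 (exact permutation p = 0.0179), with Z9 the lowest at 1.77, but the exact p was 0.05 to 0.075 without any of Z2 b, Z2 c, Z5 b, Z9 a or Z9 b. Both ratios were chosen after the counts were seen.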

How the results depend on the processing

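Over all genes, libraries of the same well letter were alike only weakly, and mainly in well a. Of 18 same-letter pairs of libraries 5 had deviations from their line means that correlated above 0.1 (r from -0.10 to 0.17 over genes). The pairs of well a all had a positive r, from 0.04 to 0.17, and those of wells b and c had r of either sign. Of 12 libraries 6 correlated best with a library of their own letter. With the replicate letter as a block all the same, the members called were 7 in Z2, 4 in Z5 and 5 in Z9 against Empty, beside 27.3%, 18.5% and 22.3% of all genes, then 4 (Z9 against Z2) and 2 (Z9 against Z5), beside 9.89% and 3.19% of all genes (1512 and 488, against 790 and 232 without the block). AKR1C2 then differed by 0.78 between Z9 and Z2 (log2, edgeR adjusted p = 4.83e-07) and AKR1C1 by 0.48 (adjusted p = 3.13e-05). With the DESeq2 Wald test 2 members were called for Z9 against Z2 and 1 for Z9 against Z5, with 1509, 495 and 9 of all genes called between Z9 and Z2, Z9 and Z5, and Z5 and Z2 (1 of the last in edgeR). Fits of only the groups compared called 4 members in Z5 and 5 in Z9 against Empty, beside 22.3% and 25.8% of all genes, and 2390 of all genes in Z2, 32 for Z9 against Z2 and 664 for Z9 against Z5 (3654, 790 and 232 with all lines fitted). Without well a of every line 4 members were called for Z9 against Z2 and 3 for Z9 against Z5, and 1708 genes in Z9 against Empty (2941 with it).

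Leaving out each library in turn gave 3 to 6 members called for the mean of the lines, 3 to 5 in Z2, 1 to 3 in Z5, 2 to 5 in Z9, 0 to 5 between Z9 and Z2, 0 to 1 between Z9 and Z5 and 0 between Z5 and Z2. All genes called then ran from 2107 to 4787, 2130 to 4411, 1087 to 3267, 1720 to 4048, 75 to 2399, 37 to 653 and 1 to 153 in the same order. The exact permutation p ran from 0.00357 to 0.00714 for the ratio of AKR1C1 to AKR1C2, 0.00357 to 0.075 for AKR1C3 to AKR1C2 and 0.00357 to 0.0929 for AKR1B1 to AKR1B10. Summing AKR7A2 with AKR7A3 gave -0.21 in Z2 against Empty, where AKR7A3 alone gave 0.03, since AKR7A2 holds nearly all counts of the sum. DESeq2 size factors and other count filters changed no count of members called by over 1.5 times. At a minimum of 1 CPM in 3 libraries 1 NRF2 target was higher, and 1 regulator was lower. The cause of the other changes was not tested. Depth limits AKR1C4 and AKR7A3 only among the members.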
